A study of Mus musculus with 8 samples.

Results

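The creatine futile cycle genes of brown adipose tissue (BAT) were taken as 7 genes by name: the creatine kinases *Ckb*, *Ckmt1* and *Ckmt2*, the synthesis enzymes *Gatm* and *Gamt*, the creatine transporter *Slc6a8* and the phosphatase *Alpl*. All 7 were found among the 33641 genes of the files, and 6 of them were among the 14851 genes that had enough counts to be tested. *Ckmt1* was the exception. Interscapular BAT of C57BL/6 mice aged 28 weeks was frozen, and poly(A) sequencing libraries were made from its total RNA to compare gene expression with and without HuR in adipocytes. The files hold 8 libraries, of which 3 are labelled wild-type (the controls, named A7, A8 and A12) and 5, named A24, A25, A26, A29 and A31, are labelled *Adipo-HuR-/-*. The *Adipo-HuR-/-* mice carried floxed HuR alleles and a Cre driven by the adiponectin promoter. Their controls were littermates of mixed genotype, which per the methods of the study could be wild-type with Cre, or homozygous or heterozygous for the floxed allele without Cre. The adiponectin promoter acts in adipocytes, so endothelial, immune, nerve and muscle cells within the dissected tissue were not targeted. The labels do not say that each library came from its own animal, so p-values measure the spread between these libraries, which may be technical.

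Total counts were 50673814 in A12, 51751002 in A8 and 60622522 in A7. In the other group they were 67498055 in A26, 58727739 in A31, 50893173 in A29, 18264754 in A24 and 17558090 in A25. A24 and A25 were therefore the shallowest libraries, both in the group labelled *Adipo-HuR-/-*. Levels of a gene across libraries are given as CPM, counts scaled to a common library total, after TMM scaling, which corrects the totals for differences in composition with factors from 0.763 in A8 to 1.2 in A25. Levels of different genes are compared as TPM, which also divides by transcript length. The marker lists are the exception, where CPM was summed over genes and genes with a large CPM are also named. Fold changes are on the log2 scale, libraries labelled *Adipo-HuR-/-* over controls, and a gene passed the test at an adjusted p of at most 0.05 and a fold of at least 1.5. For single values a two-sided exact permutation test over the 56 arrangements of the libraries was added, for which the smallest possible p is 0.0357.

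*Elavl1*, which encodes HuR, was first examined as the targeted gene. It stood at 50.6 CPM in A7, 49.2 in A12 and 48.0 in A8, and at 61.9 in A24, 61.3 in A29, 61.2 in A31, 47.3 in A25 and 43.4 in A26. The libraries labelled *Adipo-HuR-/-* lay on both sides of the controls, with means of 49.3 ± 1.28 (SD, n = 3) for controls and 55.0 ± 8.95 (SD, n = 5). The log2 fold change was 0.16 ± 0.162 (SE), with an adjusted p of 0.667 by the quasi-likelihood test of edgeR with Benjamini-Hochberg adjustment. A gene total can also count exons outside a floxed segment and RNA of cells without Cre. Neither share was measured here, so the total was not used to check the labels. A legend in the study gives the group sizes the other way round from the labels, and this was not settled here. The libraries are therefore called by their labels throughout. Each direction rests on those labels.

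The tissue label was checked against 10 brown adipocyte markers, and 10 of 10 were detected in each library. Their summed level was 34082 CPM in A8, 28767 in A24, 25315 in A31, 23677 in A12, 21045 in A29, 20782 in A26, 16257 in A7 and 15832 in A25, and *Fabp4*, a fatty acid carrier, was the highest of them in TPM in 8 of 8 libraries. *Ucp1*, the uncoupling protein of brown fat, was at 11438 CPM in A8, 9483 in A12 and 4843 in A7, against 10703 in A24, 9475 in A31, 7636 in A26, 7213 in A29 and 4251 in A25. The groups overlapped in both measures, and the *Ucp1* log2 fold change was −0.13 (edgeR adjusted p = 0.889), turning to 0.13 with scaling by total counts alone.

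Skeletal muscle lies next to interscapular BAT and expresses creatine kinases at a high level, so 15 muscle markers were read in each library. All 15 had counts in at least 1 library, and their summed level was 115 CPM in A12, 2391 in A8 and 3427 in A7, and 458 in A31, 108 in A24, 92.9 in A29, 91.4 in A26 and 65.6 in A25. A7 and A8 were far above the rest, A31 was intermediate, and A12, a control, was among the low libraries. *Myh4*, the fast myosin heavy chain that gave the list's largest mean CPM, stood at 1048 CPM in A7, 457 in A8, 106 in A31, 0.113 in A24 and 0.0209 in A12, and 0 in A25, A26 and A29. The number of the 15 markers with no counts was 0 in A7, A8 and A31, 1 in A12, 5 in A24 and A25, and 2 in A26 and A29. In the 5 low libraries the sum came mainly from *Des*, at 32.8 CPM in A25 to 56.8 in A24, and *Myl1*, at 19.9 in A26 to 52.4 in A12. In A26 the marker *Mb* also stood at 23.1 CPM, above *Myl1*. In TPM *Myl1* was the highest of the list in 6 of 8 libraries. All 15 had a negative log2 fold change, 2 passed the test, beside 0.707% of all genes tested, and 12 had an unadjusted p under 0.05, beside 17.0%.

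The other marker lists overlapped between the groups in their summed CPM, and for each the gene with the highest mean TPM is named. The 8 endothelial markers, led by *Cdh5*, summed to 434 ± 57.8 CPM in controls (SD, n = 3) and 498 ± 91.7 in the libraries labelled *Adipo-HuR-/-* (SD, n = 5). The 6 mural cell markers, led by *Rgs5*, summed to 365 ± 37.0 and 334 ± 21.4, and the 6 fibroblast and preadipocyte markers, led by *Dcn*, to 208 ± 89.7 and 166 ± 44.2. Macrophage and leukocyte markers, 7 genes led by *Lyz2*, summed to 68.0 ± 37.8 and 63.7 ± 16.9. In edgeR, 1 gene each of the endothelial, mural and macrophage lists had an unadjusted p under 0.05, and no fibroblast gene did, where 17.0% of all genes tested reached that level. The log2 fold change was positive for 8 of 8 endothelial genes and negative for 6 of 6 fibroblast genes, while mural genes were 2 positive and 4 negative, and macrophage and leukocyte genes 3 positive and 4 negative. The 5 neutrophil markers, led by *S100a9*, were sparse, at 3.61 ± 3.26 and 4.22 ± 2.86 CPM. Those of Schwann cells and nerve, 6 genes led by *Mbp*, gave 50.9 ± 11.3 and 45.1 ± 4.60, and 4 genes higher in white adipocytes, led by *Retn*, gave 54.7 ± 22.6 and 47.4 ± 13.8. These 3 lists had 0, 1 and 3 genes at an unadjusted p under 0.05, against the same 17.0%, and 3, 4 and 2 genes with a positive against 1, 2 and 2 with a negative log2 fold change. *Lep* had the larger mean CPM of the last list, through A7, where it stood at 64.3 CPM.

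Creatine cycling is a route of heat production in thermogenic fat that does not need UCP1. A kinase at the mitochondria transfers phosphate from ATP to creatine, a phosphatase then splits the phosphocreatine without useful work, and the ADP released drives further respiration. CKB and the tissue-nonspecific alkaline phosphatase encoded by *Alpl* have been described at the mitochondria of thermogenic adipocytes, while GATM and GAMT make creatine and SLC6A8 imports it from blood.

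By the quasi-likelihood test of edgeR, 0 of the 6 tested members passed the threshold, beside 0.707% of all genes tested. At an unadjusted p under 0.05 there were 3 members, *Ckb*, *Ckmt2* and *Alpl*, where 17.0% of all genes reached that level. *Ckb* alone passed by the Wald test of DESeq2, which called 5.54% of genes, and by the likelihood ratio test of edgeR, which called 4.41%. No member passed by limma voom with quality weights, which called 1.06%. In TMM-scaled CPM no member had all libraries labelled *Adipo-HuR-/-* above all controls, a pattern held by 5.37% of genes. In CPM from total counts alone *Ckb* and *Alpl* had it (background 11.9%), and the same pair had it in TPM (background 6.69%). The log2 fold change was positive for 3 of the tested members and negative for 3, as it was positive for 7438 and negative for 7413 of all genes tested.

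*Ckb* encodes the brain-type cytosolic creatine kinase. It stood at 22.4 CPM in A8, 14.0 in A12 and 13.0 in A7, and at 75.5 in A26, 62.3 in A31, 44.9 in A24, 26.7 in A29 and 22.0 in A25. A26, A31 and A24 were the highest libraries, and the groups overlapped only because A25 lay just under the control A8. Behind these levels were 669 counts in A12 to 884 in A8 among controls, and 463 counts in A25 to 5096 in A26 in the other group. The mean was 16.4 ± 5.17 CPM (SD, n = 3) in controls and 46.3 ± 22.8 (SD, n = 5) in the libraries labelled *Adipo-HuR-/-*, a ratio of 2.82, while the highest and lowest libraries of the latter group alone differed 3.44-fold. The log2 fold change was 1.5 ± 0.409 (SE), with an adjusted p of 0.107 by the quasi-likelihood test of edgeR. The adjusted p was 0.00549 by the Wald test of DESeq2 and 0.0182 by the likelihood ratio test of edgeR, and over the alternatives with at least 2 controls it ran from 0.00549 to 0.263. The exact permutation test on log2 CPM gave p = 0.0714. In bulk tissue, more RNA per cell and more cells that express a gene cannot be told apart.

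*Ckb* in TPM was 12.6 in A12, 13.9 in A8 and 14.5 in A7, and 72.4 in A26, 64.5 in A31, 36.6 in A24, 26.2 in A25 and 25.1 in A29. On this scale the controls lay close together and the groups did not overlap. The scale matters most for A8 and A25, whose TMM factors were the farthest apart. In CPM from total counts alone *Ckb* was 17.1 in A8 and 26.4 in A25. With the mean log2 CPM of the muscle markers as a covariate the *Ckb* log2 fold change was 1.78 ± 0.484 (edgeR adjusted p = 0.262), and among the 5 libraries low in muscle markers, which leave A12 as the lone control, it was 1.6 ± 0.65. With 1 control, that last value is given as a description.

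**Figure D1:**
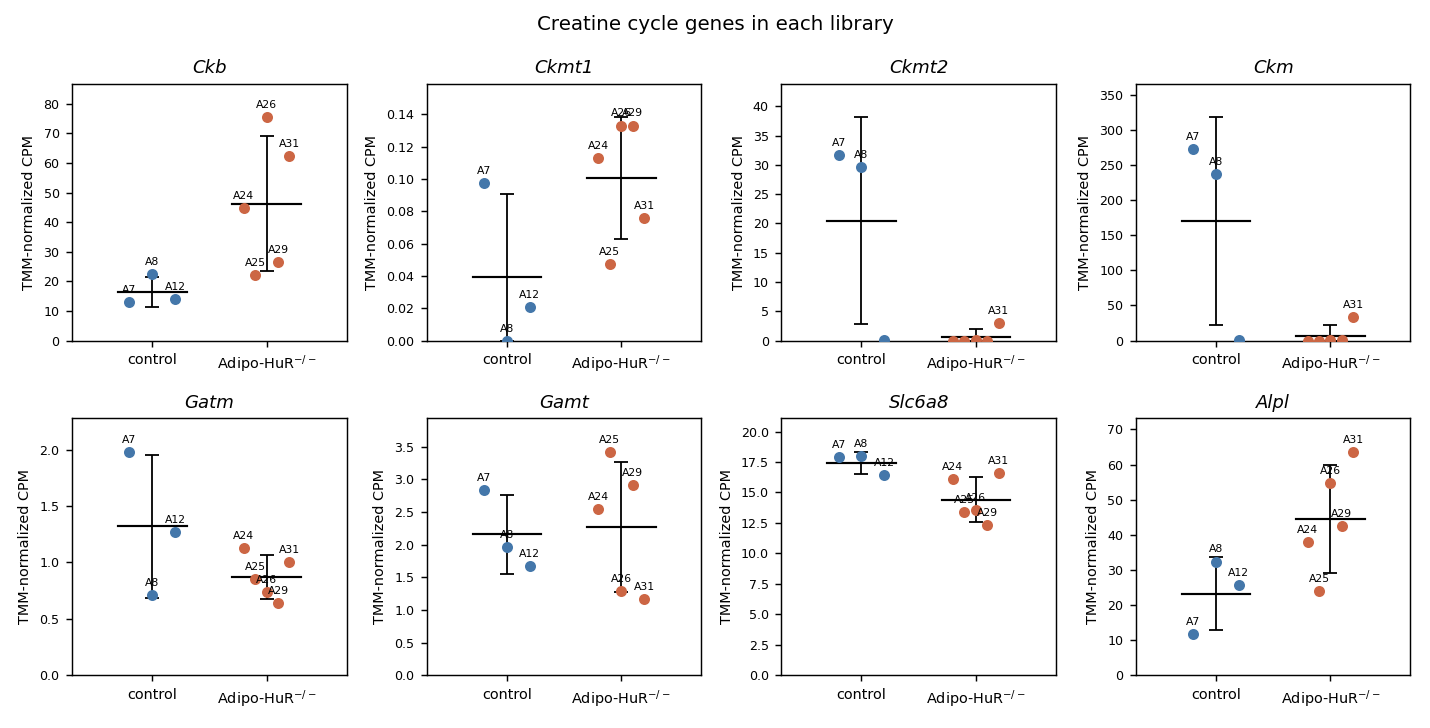
TMM-scaled CPM (vertical axes, each from 0) of the creatine cycle genes and *Ckm* in each library, one point per library, with bars for the mean and SD (not drawn below 0) of the 3 control libraries and the 5 labelled *Adipo-HuR-/-*. *Ckb* and *Alpl* overlap between the groups through A25, *Ckmt2* and *Ckm* are high in A7 and A8, and values under 1 CPM in their panels carry no library name.

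*Ckmt1*, the ubiquitous mitochondrial creatine kinase, was hardly detected. The files held 6, 0 and 1 counts in A7, A8 and A12, and 2, 1, 9, 7 and 5 in A24, A25, A26, A29 and A31. Its level ran from 0 to 0.133 CPM, and the count of 0 in A8 allows up to 0.076 CPM, that is 3 counts, a limit that covers counting error only. Fitted without the filter, its log2 fold change was 1.22 ± 0.935 (SE, edgeR adjusted p = 0.591), and the exact permutation test gave p = 0.107.

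*Ckmt2*, the sarcomeric mitochondrial creatine kinase, was high in a few libraries. It was at 0.0627 CPM in A12, 29.6 in A8 and 31.7 in A7, and at 0.0148 in A26 and 3.04 in A31, with counts of 0 in A24, A25 and A29. Its counts were 1956 in A7, 1168 in A8, 201 in A31, 3 in A12 and 1 in A26, and the counts of 0 allow up to 0.169 CPM in A24, 0.142 in A25 and 0.0568 in A29. A7 and A8 were thus high, A31 was intermediate, and the control A12 was as low as most libraries of the other group. The mean was 20.4 ± 17.7 CPM (SD, n = 3) in controls and 0.612 ± 1.36 (SD, n = 5) in the libraries labelled *Adipo-HuR-/-*. The fitted log2 fold change was −4.84 ± 1.61 (SE, edgeR adjusted p = 0.165), and the exact permutation test gave p = 0.0714.

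*Ckm*, the cytosolic creatine kinase of muscle, is not part of the futile cycle and was read for comparison. It gave 0.23 CPM in A12, 237 in A8 and 273 in A7, and 33.2 in A31, 0.163 in A26, 0.152 in A29, 0.0949 in A25 and 0.0564 in A24. The order of high, intermediate and low libraries was that of *Ckmt2* and of the summed muscle markers given above. Its log2 fold change was −4.61 ± 1.96 (SE, edgeR adjusted p = 0.264). Leaving out A31 alone gave −10.29 for *Ckm* (edgeR adjusted p = 0.0551). With the mean log2 CPM of the muscle markers as a covariate, the log2 fold change was 0.03 for *Ckmt2* (edgeR adjusted p = 0.971) and 0.59 for *Ckm* (edgeR adjusted p = 0.609), against −4.84 and −4.61 without it. Both genes follow these markers across the same libraries. The loss of the difference was therefore built into this fit, which gives no test of either gene. In the 5 libraries low in muscle markers *Ckm* had 1 to 11 counts and *Ckmt2* 0 to 3 counts each. Since these libraries were taken by markers that both genes follow, and hold 1 control, they give no test of either gene. Without A31, *Ckmt2* did not pass the filter, since it had more than 3 counts in A7 and A8 alone. Over the alternatives that could be tested, the adjusted p of *Ckmt2* was at least 0.101.

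The make-up of the creatine kinase pool followed from these levels. Of the summed TPM of *Ckb*, *Ckm*, *Ckmt1* and *Ckmt2*, *Ckb* held 97.0% in A12, 7.06% in A8 and 3.74% in A7, and 99.7% in A24, 99.7% in A26, 99.6% in A25, 98.8% in A29 and 59.9% in A31. *Ckm* held 87.2% in A7, 83.7% in A8 and 37.1% in A31, and at most 2.31% elsewhere. *Ckb* was thus nearly the whole pool in the 5 libraries low in muscle markers, A12 included, and a small part of it in A7 and A8. *Ckm* exceeded *Ckmt2* in TPM by 9.63 times in A7, 9.06 in A8 and 12.8 in A31.

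**Figure D2:**
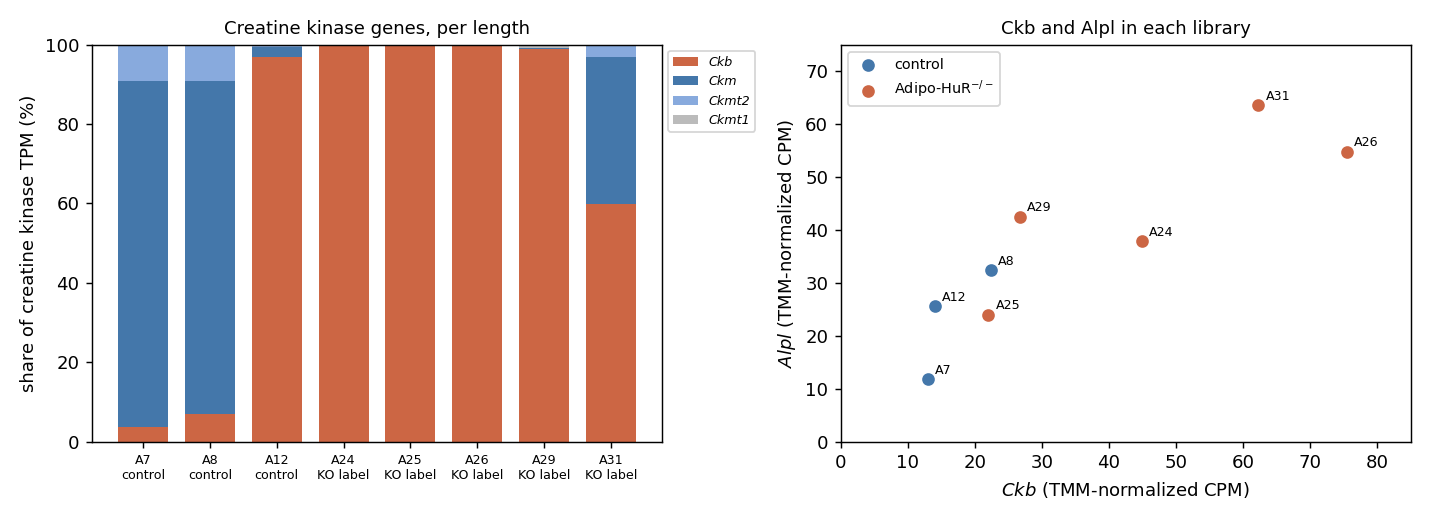
Left, share of the summed creatine kinase TPM (percent) held by each of 4 genes in each library, in which *Ckm* and *Ckmt2* make up most of A7 and A8 and a part of A31. Right, TMM-scaled CPM of *Ckb* (horizontal) and *Alpl* (vertical) with one point per library, where A26 and A31 are highest in both and the control A7 is lowest in both.

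The kinases are related in sequence, which bears on how reads are assigned. The coding sequences of *Ckb* and *Ckm*, of 1146 bases each, were 76.4% identical, and *Ckmt1* and *Ckmt2* were 71.6% identical, while pairs across these classes were 66.5% to 68.2% identical. Of the 1442 stretches of 31 bases in *Ckb* transcripts, 531 (36.8%) also occurred in another gene, and 504 of them in the pseudogene *Gm12892*. That pseudogene had no counts in any library and *Ckb-ps1* had 1 count in A7, so how the original counting divided such reads leaves *Ckb* uncertain to that extent. For *Ckm* 13.6% and for *Ckmt2* 4.40% of such stretches were shared, mostly with the antisense genes *A930016O22Rik* and *1700119I11Rik*. Whether the counting used strand is not given in the sources used here, so reads of these overlaps cannot be told apart.

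*Gatm* encodes the mitochondrial enzyme that makes guanidinoacetate, the committed step of creatine synthesis. Its level was low, at 1.98 CPM in A7, 1.27 in A12 and 0.709 in A8, and from 0.644 in A29 to 1.13 in A24 in the other group. The groups overlapped, since the control A8 was among the lowest libraries. The means were 1.32 ± 0.634 CPM (SD, n = 3) and 0.873 ± 0.194 (SD, n = 5), with a log2 fold change of −0.62 ± 0.369 (SE, edgeR adjusted p = 0.433). Without A7 the log2 fold change was −0.20 (edgeR adjusted p = 0.857), and without A8 it was −0.90 (edgeR adjusted p = 0.176). The sums rest on 18 to 122 counts per library. Of these, 50% came from 3 identifiers outside the annotation, each with the same counts as an annotated *Gatm* transcript, so the level of *Gatm* may be counted double.

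*Gamt* encodes the methyltransferase that turns guanidinoacetate into creatine. It was at 1.67 CPM in A12, 1.97 in A8 and 2.83 in A7, and at 3.42 in A25, 2.92 in A29, 2.54 in A24, 1.29 in A26 and 1.17 in A31. The libraries labelled *Adipo-HuR-/-* held both the highest and the lowest values. The means were 2.16 ± 0.603 CPM (SD, n = 3) and 2.27 ± 0.998 (SD, n = 5), and the log2 fold change of 0.05 ± 0.395 (SE, edgeR adjusted p = 0.963) changed sign under several alternatives.

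A pair of coding transcripts of nearly equal length, 979 and 988 bases, carried most *Gamt* counts. *Gamt-201*, the shorter, held 2.46% of the gene in A7, 29.5% in A8 and 56.5% in A12, and 3.41% in A26 and 4.28% in A29, with 0 in A24, A25 and A31. The share was thus high in A8 and A12 and low in the other libraries, the control A7 included. *Gamt-201* had 4.3, 23 and 45.2 estimated counts in A7, A8 and A12, and 2.97 in A26 and 6.59 in A29. Its share depends on how these few reads were divided between transcripts. The mean share was 29.5% ± 27.0 in controls and 1.54% ± 2.13 in the libraries labelled *Adipo-HuR-/-*, with an exact permutation p of 0.107, or 0.714 adjusted by Benjamini-Hochberg over the 8 transcript shares tested. The difference of −28.0 percentage points was −14.4 without A12 and −41.5 without A7. The rest was mainly *Gamt-202*.

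*Slc6a8* encodes the sodium- and chloride-dependent creatine transporter of the plasma membrane. It was the steadiest of the tested members, at 18.0 CPM in A8, 17.9 in A7 and 16.4 in A12, and at 16.6 in A31, 16.1 in A24, 13.6 in A26, 13.4 in A25 and 12.3 in A29. The highest and the lowest library differed 1.46-fold, and the groups overlapped only through A31, which lay just above A12. The means were 17.4 ± 0.879 CPM (SD, n = 3) and 14.4 ± 1.86 (SD, n = 5), with a log2 fold change of −0.28 ± 0.147 (SE, edgeR adjusted p = 0.370) and an exact permutation p of 0.0714. With scaling by total counts alone the log2 fold change was −0.05, where the median of all genes was 0.23. Among its transcripts, *Slc6a8-203* held 56.2% of counts over all libraries, *Slc6a8-201* 18.8%, and *Slc6a8-202*, annotated as a target of nonsense-mediated decay, 18.5%. The last was uneven, at 56.8% in A8 and 39.7% in A24 but near 0 in A7 and A25, and 1.44% in A26, and these shares depend on how reads were divided between transcripts.

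*Alpl* encodes the tissue-nonspecific alkaline phosphatase. Its level was 32.4 CPM in A8, 25.6 in A12 and 11.8 in A7, and 63.6 in A31, 54.8 in A26, 42.5 in A29, 37.9 in A24 and 24 in A25. As for *Ckb*, A26 and A31 were highest and A7 lowest, and A25 was the library of its group that lay within the controls. The means were 23.2 ± 10.5 CPM (SD, n = 3) and 44.6 ± 15.3 (SD, n = 5), a ratio of 1.92. The log2 fold change was 0.94 ± 0.365 (SE, edgeR adjusted p = 0.223), and the exact permutation test gave p = 0.107. In TPM the values were 16.8 in A12, 14.9 in A8 and 9.45 in A7, and 48.9 in A31, 41.6 in A26, 28.9 in A29, 20 in A24 and 19.6 in A25. On that scale the groups did not overlap. *Alpl-201*, which starts at the upstream promoter, carried 91.2% of counts, the short *Alpl-208* 7.56%, and *Alpl-205*, which starts at the internal promoter, 0.819%.

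The order of the members was read in TPM. In controls the means were 13.7 ± 0.983 for *Ckb*, 13.7 ± 3.83 for *Alpl*, 7.56 ± 2.12 for *Slc6a8*, 3.04 ± 1.6 for *Gamt*, 0.806 ± 0.589 for *Gatm* and 0.0793 ± 0.109 for *Ckmt1* (SD, n = 3), with *Ckmt2* at 17.8 ± 17.6 because of A7 and A8. *Ckb* and *Alpl* did not differ beyond their spread there. In the libraries labelled *Adipo-HuR-/-* the means were 45.0 ± 22.1 for *Ckb*, 31.8 ± 13.1 for *Alpl*, 7.08 ± 1.27 for *Slc6a8*, 3.47 ± 1.84 for *Gamt*, 0.626 ± 1.39 for *Ckmt2*, 0.548 ± 0.108 for *Gatm* and 0.122 ± 0.0610 for *Ckmt1* (SD, n = 5). The transporter exceeded *Gatm* in TPM 6.78- to 20.3-fold across the 8 libraries, and *Gamt* exceeded *Gatm* 2.82- to 9.97-fold. Both ratios would be larger if the duplicate identifiers of *Gatm* were counted once. *Ckb* exceeded *Slc6a8* 1.49- to 11.1-fold. The ratio of *Alpl* to *Ckb* lay between 0.546 and 1.33, so these had no fixed order, and *Ckmt2* and *Gatm* in the libraries labelled *Adipo-HuR-/-* were within their spread of each other.

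Genes with the most similar pattern were sought for each tested member among 7419 genes of at least 10 CPM, as the smallest root mean square difference of centred log2 CPM over the 8 libraries. For *Ckb* the nearest gene was *Alpl* (0.442), followed by *Car14*, a carbonic anhydrase (0.464), and *Cad*, an enzyme of pyrimidine synthesis (0.466), where the median gene differed by 0.926. *Alpl* lay nearest to *Plcd1* (0.308), *Slc22a5*, a carnitine transporter (0.312), and *Kcnk3*, a potassium channel (0.317), with a median of 0.766. The nearest genes of *Ckmt2* were those of muscle fibres, *Actn3* (0.627), *Myh2* (0.629) and *Tcap* (0.631), against a median of 4.03. All of these are in the muscle marker list. *Gamt* lay nearest to *Fdps* (0.229) and *Pmvk* (0.262), both enzymes of the mevalonate route, and to *Mapk8ip1* (0.311). *Gatm* lay nearest to *Zfp395* (0.205), *Pygb* (0.210) and *Tmem140* (0.214), and *Slc6a8* to *Pdia4* (0.0736), *Ifngr2* (0.0863) and *Ubac1* (0.0909). The medians were 0.601, 0.546 and 0.321 for these last 3 members.

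Genes around the cycle were taken as 6 lists with 57 genes, of which 45 were tested. By the quasi-likelihood test of edgeR 0 passed, beside 0.707% of all genes, and 6 had an unadjusted p under 0.05, beside 17.0%. Of the 45, 27 had a negative and 18 a positive log2 fold change, with a median of −0.09 beside 0.00 for all genes tested. The Wald test of DESeq2 and the likelihood ratio test of edgeR each called 2, *Ahcyl2* and *Gnmt*, beside 5.54% and 4.41% of all genes, and limma voom called 0. These counts are near or below those backgrounds. Both belong to the list for the substrates and methyl groups of creatine synthesis, in which 18 of 20 genes were tested, 10 with a negative and 8 with a positive value (median −0.07). *Ahcyl2*, a relative of the enzyme that clears S-adenosylhomocysteine, was at 92.1 CPM in A7, 63.5 in A12 and 46.1 in A8, and at 46.9 in A25, 42.6 in A26, 35.5 in A29, 35.5 in A31 and 33.8 in A24. A25 lay just above A8, so the groups overlapped, and the log2 fold change was −0.79 ± 0.215 (SE, edgeR adjusted p = 0.106). *Gnmt*, the glycine methyltransferase that competes for the same methyl donor, was named after its values were seen. It was low, at 1.34 CPM in A8, 1.04 in A12 and 0.583 in A7, and at 4.93 in A26, 3.89 in A24, 2.42 in A29, 2.36 in A31 and 1.99 in A25. Here the groups did not overlap, and the log2 fold change was 1.67 ± 0.404 (SE, edgeR adjusted p = 0.084). It was the 1 pathway gene of 45 with all libraries labelled *Adipo-HuR-/-* above the controls (background 5.37%), while 2, *Vdac1* (log2 fold change −0.35, edgeR adjusted p = 0.259) and *Phospho2* (−0.30, edgeR adjusted p = 0.288), had them all below (background 6.09%).

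The other lists, of which *Ckm* is one, held no gene that passed by these tests. Of 11 adenylate and nucleoside diphosphate kinases, which pass phosphate between nucleotides, 10 were tested, 7 negative and 3 positive (median −0.13). Among those of at least 10 CPM the largest difference was that of *Ak3* (log2 fold change −0.26, edgeR adjusted p = 0.524). Below that level, *Ak4* was at −1.33 (edgeR adjusted p = 0.192). It stood at 17.9 CPM in A7, 4.26 in A12 and 3.65 in A8, and at 2.33 in A29 to 4.96 in A26 in the other group. The 7 genes for ATP, ADP and phosphate exchange across the mitochondrial membranes were 5 negative and 2 positive (median −0.29), with *Slc25a3*, the phosphate carrier, at 0.39 (edgeR adjusted p = 0.365). Of 7 phosphatases and related genes, 4 were tested, 2 in each direction (median −0.07), with *Phospho1* at −0.31 (edgeR adjusted p = 0.676). Of 11 transporters of the family of *Slc6a8*, 5 were tested, 2 negative and 3 positive (median 0.57), with the taurine transporter *Slc6a6* at −0.13 (edgeR adjusted p = 0.807). These 4 lists had 1, 1, 1 and 0 genes at an unadjusted p under 0.05.

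**Figure D3:**
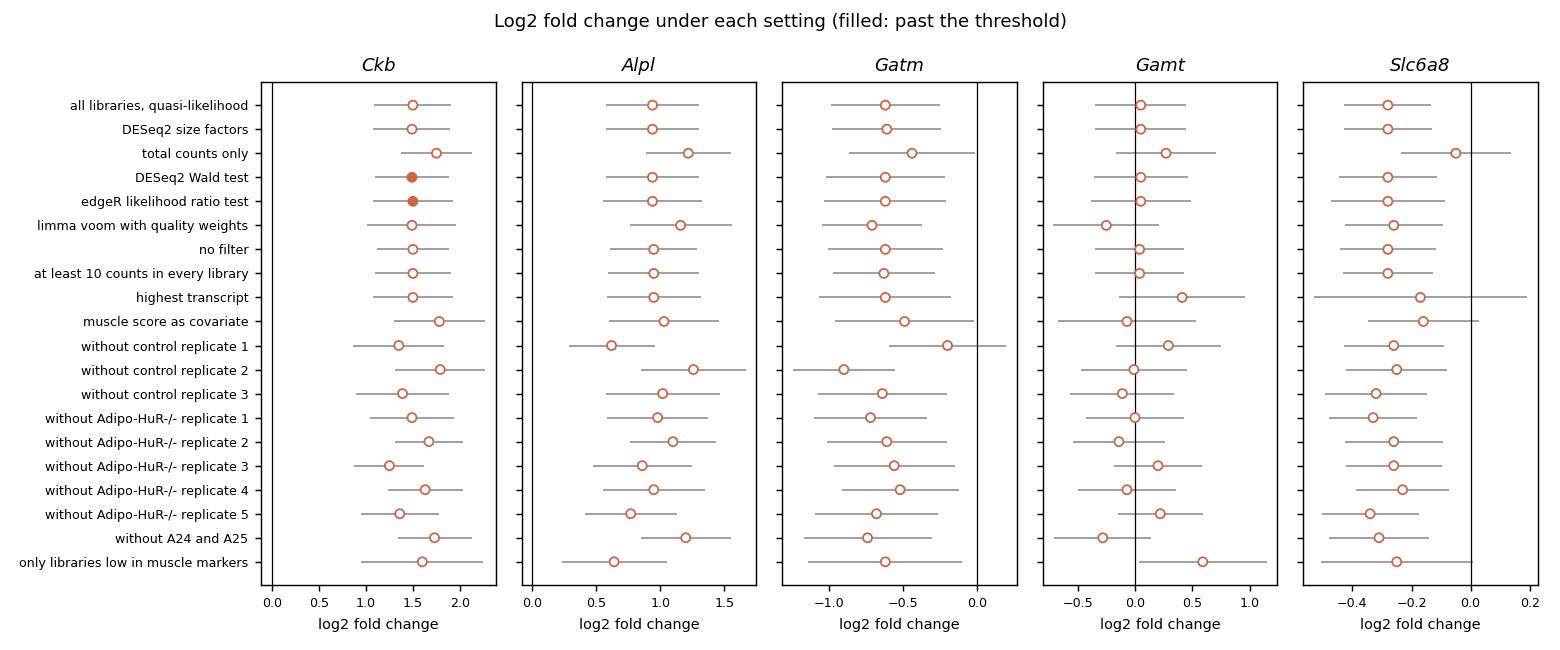
Log2 fold changes (horizontal axis, libraries labelled *Adipo-HuR-/-* over controls, bars for SE) of *Ckb*, *Alpl*, *Gatm*, *Gamt* and *Slc6a8* with all libraries and under each alternative (vertical axis), with filled points past the threshold. *Ckb* lies between 1.25 and 1.79 and is filled by the DESeq2 Wald and the edgeR likelihood ratio test, *Alpl* lies between 0.62 and 1.26, and *Gamt* lies on both sides of 0.

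Promoters of 300 bases were matched for 6 of the 7 members and for *Ckm* (RefSeq, GRCm38.p6). *Slc6a8* had no match. Both strands were searched for 5 motifs, and 32851 promoters of that length served as the background. TGACG, the core of a cAMP response element, occurs in 20.8% of them. The box with the letters GGGCGG occurs in 35.7%, the box with CCAAT in 37.4%, the E-box CANNTG in 72.3% and the nuclear receptor half-site AGGTCA in 16.3%. The promoters of *Ckb* and *Alpl*, whose patterns were near each other, are shown with those of *Ckmt2* and *Ckm*, the genes that moved with the muscle markers, 5′ to 3′ with motif matches in capitals. *Ckb* (chr12:111672289-111672588, minus strand) had 2 CCAAT boxes and no other match, and *Alpl* at its upstream start (chr4:137796335-137796634, minus strand) had 3 GGGCGG boxes, 2 of which overlap, and 1 E-box. They thus shared no motif of the 5. *Ckmt2* (chr13:91876836-91877135, minus strand) had 4 E-boxes, 2 CCAAT boxes and 1 GGGCGG box, and *Ckm* (chr7:19410844-19411143, plus strand) had 1 E-box. A match is a description of letters and not a bound site.
Ckb: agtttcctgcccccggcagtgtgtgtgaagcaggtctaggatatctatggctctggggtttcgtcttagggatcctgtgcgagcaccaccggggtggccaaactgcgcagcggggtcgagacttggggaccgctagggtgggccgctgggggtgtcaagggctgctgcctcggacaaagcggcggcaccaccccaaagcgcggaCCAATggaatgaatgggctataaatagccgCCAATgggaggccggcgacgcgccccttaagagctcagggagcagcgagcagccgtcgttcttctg
Alpl: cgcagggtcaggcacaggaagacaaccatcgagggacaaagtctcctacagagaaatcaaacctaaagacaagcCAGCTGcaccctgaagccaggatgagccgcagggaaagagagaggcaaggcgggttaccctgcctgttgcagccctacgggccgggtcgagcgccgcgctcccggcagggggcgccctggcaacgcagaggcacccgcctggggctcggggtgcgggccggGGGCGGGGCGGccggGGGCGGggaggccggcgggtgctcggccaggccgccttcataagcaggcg
Ckmt2: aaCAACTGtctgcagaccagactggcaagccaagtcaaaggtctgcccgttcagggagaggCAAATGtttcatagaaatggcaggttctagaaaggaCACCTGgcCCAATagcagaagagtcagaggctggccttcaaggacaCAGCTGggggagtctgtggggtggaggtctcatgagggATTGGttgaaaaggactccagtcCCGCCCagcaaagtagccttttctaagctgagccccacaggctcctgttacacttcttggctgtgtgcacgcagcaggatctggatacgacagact
Ckm: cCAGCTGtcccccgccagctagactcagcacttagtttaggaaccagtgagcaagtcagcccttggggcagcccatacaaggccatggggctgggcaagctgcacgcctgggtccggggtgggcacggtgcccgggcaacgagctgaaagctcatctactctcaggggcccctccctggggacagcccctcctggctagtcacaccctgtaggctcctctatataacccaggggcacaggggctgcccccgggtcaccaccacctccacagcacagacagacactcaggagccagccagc

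In the remaining members, *Gatm* had 2 CCAAT boxes, 1 E-box and 1 AGGTCA, and *Gamt* had 4 GGGCGG boxes and 1 E-box. *Ckmt1* had 1 E-box and 1 AGGTCA in one promoter (chr2:121357526-121357825) and 1 CCAAT box in the other (chr2:121358360-121358659). TGACG was found only in the internal promoter of *Alpl* (chr4:137766426-137766725), from which few counts came. The GC content was 63.0% for *Ckb* and 70.0% for *Alpl* at its upstream start, against a median of 52.7% over all promoters. It was 66% for *Gamt*, 64.7% for *Ckm*, 60.7% for *Gatm* and 53.7% for *Ckmt2*. The promoters of *Ckmt1* had 52% and 58.3%, and the internal promoter of *Alpl* 54.3%.

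HuR binds AU-rich stretches of 3′ untranslated regions, so these were searched for ATTTA and for TATTTAT, which contains it, on the sense strand (GENCODE M21, GRCm38). Over 14066 genes, 65.9% held ATTTA and 27.8% TATTTAT, with a median length of 992 bases. *Ckb*, with 202 bases, *Ckmt2*, with 142, and *Gamt*, with 166, held neither. *Alpl* held 1 ATTTA in 704 bases, *Slc6a8* 1 in 1402, *Ckmt1* 1 in 123 and *Ckm* 1 in 1455, with no TATTTAT. *Gatm* had 5 ATTTA in 1030 bases, 2 of them within TATTTAT. These 2 are shown as the only such sites among the members, with ATTTA in capitals, at chr2:122595025-122595053 and chr2:122594954-122594982 on the minus strand.
Gatm site at base 456: gtagaatcagatATTTAtctctttttcta
Gatm site at base 527: cttttatcagatATTTAtctctttttcta

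The members lie on 6 chromosomes (GENCODE M21, GRCm38). *Ckb* lies at chr12:111669361-111672338, *Ckmt2* at chr13:91853387-91876885, *Gamt* at chr10:80258151-80261012, *Slc6a8* at chrX:73673150-73682502 and *Alpl* at chr4:137741733-137796384. *Ckmt1* (chr2:121357714-121363737) and *Gatm* (chr2:122594467-122611303) are on the same chromosome.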

How the data were processed

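Poly(A) libraries were prepared with a TruSeq kit from total RNA of interscapular BAT. The authors deposited, for each library, a table of estimated counts (expected counts) per transcript, made from the reads before deposition, which were summed per gene symbol and rounded to whole numbers. The methods of the study name CLC Genomics Workbench, and the program that divided reads between transcripts is not given in the sources used here. The tables hold 105129 transcript identifiers, of which 103635 match GENCODE M21 (GRCm38) without their version and 99505 with it, and 79.1% of gene sums lie within 0.02 of a whole number. Groups follow the genotype labels, and replicates were numbered in the order of the sample records (A7, A8 and A12 as control replicates 1 to 3, and A24, A25, A26, A29 and A31 as *Adipo-HuR-/-* replicates 1 to 5).

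Genes were filtered with filterByExpr, scaled with TMM factors, and the quasi-likelihood test was that of edgeR 4.0.16 (R 4.3.3), with Benjamini-Hochberg adjustment over 14851 genes, an adjusted p of at most 0.05 and a fold of at least 1.5. Log2 CPM used a prior count of 2. TPM used annotated transcript lengths, and transcripts outside the annotation took the count per length of their gene. Alternatives were DESeq2 1.42.0, the likelihood ratio test of edgeR, limma 3.58.1 voom, other scalings and filters, the highest transcript, the muscle marker mean as a covariate, and leaving out libraries. The code was tested on simulated data. Permutation tests, sequences and figures used Python 3.11.15, numpy 2.4.6, pandas 2.3.3, scipy 1.17.1 and matplotlib 3.10.9. All pairs of the 8 libraries differed by more than counting noise, so no pair was treated as 1 library deposited again.

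Named genes were *Elavl1*, *Ucp1*, the members, *Ckm*, pathway genes past the threshold, the gene of each pathway list with the largest absolute log2 fold change among those of at least 10 CPM, the 3 genes nearest to each tested member, and the most abundant gene of each of the 9 marker lists, which was taken by mean CPM. *Retn*, *Myl1*, *Des*, *Mb*, *Gnmt*, *Ak4*, *Vdac1* and *Phospho2* were named after their values were seen. The members and lists were chosen with earlier results of these data known. Shares were tested for transcripts holding at least 5% of a member. Those of *Ckmt1* were not computed because A8 has no counts. Protein identity was not analysed here, and coding sequences of GENCODE M21 were aligned instead. Promoters are from RefSeq (GRCm38.p6).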

Additional observations from a re-analysis of the deposited data

Results flagged for a closer look

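In 32 groups of values, the 5 libraries labelled *Adipo-HuR-/-* were searched for a highest or lowest library far from the others, and 5 such values were found. Chance alone finds one in about 1 in 20 groups of normally distributed values. That rate need not hold for CPM and shares, least of all for genes near the floor such as *Ckmt2*. *Ckmt2* was at 3.04 CPM in A31 and at most 0.0148 in the other libraries of the group. *Ckm* was at 33.2 CPM in A31, and the skeletal muscle markers summed to 458 CPM in the same library. These 3 come from 1 library and are not independent of each other. *Slc6a8-201* held 44.7% of the counts of its gene in A25, one of the shallowest libraries. Macrophage and leukocyte markers summed to 92.8 CPM in A24, which was within the range of the controls.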

How the results depend on the processing

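Of 406 values under alternative settings, 355 kept their direction and their side of the threshold or, for counts and levels, stayed within a tolerance. This says little about the size of a fold change. *Ckm*, at −4.61 with all libraries and −10.29 without A31, was among the 355. Genes past the threshold numbered 105 (36 higher, 69 lower) and became 823 by the Wald test of DESeq2, 655 by the likelihood ratio test of edgeR, 16 with the highest transcript per gene, 13 with the muscle covariate, 5 without A24 and A25, 4 in the libraries low in muscle markers, and 10 to 190 when 1 library was left out (13 without A7, 190 without A12, 15 without A25, 10 without A26, 14 without A29, 17 without A31). Scaling by total counts alone gave 96 higher and 25 lower and shifted the all-gene median log2 value by 0.23. Members past the threshold were 0 and became 1 (*Ckb*) by the DESeq2 Wald test (log2 fold change 1.49) and 1 by the edgeR likelihood ratio test (1.5), and were 0 to 0 with 1 library left out. Pathway genes past it were 0 and became 1 with total counts (*Gnmt*), 2 by the Wald test, 2 by the likelihood ratio test, and 0 to 1 with 1 library left out (*Ahcyl2* without A8). *Ckb* lay between 1.25 and 1.79 with 1 library left out, *Alpl* between 0.62 and 1.26, *Gatm* between −0.90 and −0.20, and *Slc6a8* between −0.34 and −0.23. With 1 library left out *Ckmt2* ran from −5.41 to −4.42 and *Ckm* from −10.29 to −4.09. With the muscle covariate, made of markers that both genes follow, *Ckmt2* turned to 0.03 and *Ckm* to 0.59, which tests neither. *Ckm* was −0.85 in the libraries low in muscle markers, a subset with few *Ckm* counts and 1 control. It was −3.25 by limma voom and −3.93 without A24 and A25. *Gamt* turned to −0.25 by limma voom, −0.07 with the covariate and −0.28 without A24 and A25, was 0.27 with total counts, 0.41 with the highest transcript and 0.59 in the libraries low in muscle markers, and ran from −0.14 to 0.29 with 1 library left out. *Ucp1* turned to 0.13 with total counts, *Ak3* to 0.03 in libraries low in muscle markers, and *Slc6a6* to 0.10 with total counts and 0.00 without A24 and A25. With 1 library left out *Ucp1* ran from −0.41 to 0.14, *Slc6a6* from −0.28 to 0.15 and *Phospho1* from −0.52 to 0.06. *Slc6a6* was −0.32 with the covariate and −0.60 in the libraries low in muscle markers, where *Phospho1* was −1.04 and *Ucp1* −0.35. *Phospho1* was −0.08 and *Ak3* −0.03 with total counts, and *Phospho1* −0.15 without A24 and A25. *Elavl1* was 0.38 with total counts and 0.46 with the highest transcript. *Slc25a3* was 0.62 and 0.80 under these, 0.14 without A24 and A25 and 0.59 in the libraries low in muscle markers, and *Slc6a8* was −0.05 with total counts, −0.17 with the highest transcript and −0.16 with the covariate. Transcript share differences in percentage points changed sign with 1 library left out for *Slc6a8-202* (−25.1 to 3.34), *Slc6a8-203* (−7.05 to 15.1), *Slc6a8-201* (−2.54 to 5.35), *Alpl-208* (−0.653 to 1.18) and *Alpl-201* (−0.288 to 1.72), and kept it for *Gamt-201* (−41.5 to −14.4) and *Gamt-202* (12.2 to 40.8). TPM over protein-coding transcripts alone was 16.4 for *Ckb* in controls and 0.658 for *Gatm* in the libraries labelled *Adipo-HuR-/-*. The cause of these differences was not tested. *Ckmt2* could not be fitted in the libraries low in muscle markers, without A31, or with a minimum of 10 counts in every library, and DESeq2 gave it no p-value. No paired analysis was possible because the labels give no replicate numbers shared between the groups. Depth limits *Ckmt1*, *Ckmt2* outside A7, A8 and A31, *Gatm* and *Gamt*, and it was lowest in A24 and A25.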
